A study of Homo sapiens and Mus musculus with 213 samples.

Results

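The 8 genes JAKMIP2, WWC3, OLFM1, SLITRK3, AGMAT, EXO5, CYBA and RASL10B were followed across 3 HEK293T lines that differ at the MYC promoter, out of 58336 genes listed for the RNA-seq libraries. They were chosen by their change in the MYC MUT line against the MYC WT line, in the same libraries, so that this change is given below as a description and not as a test. The open question was the level in the other edited line, SWP, which the rule did not use, although earlier results in all lines were known when the genes were gathered. All 8 genes passed the minimum for testing, an average of 10 normalized counts across the 9 libraries. The label under which they were gathered, large movers in the mutant, held for 7 of them. RASL10B was not a large mover in MYC MUT and stood out in SWP instead. Whether its SWP values played a part in its choice is not known.

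HEK293T cells are a widely used human kidney cell line of embryonic origin, and each of the 3 lines had 3 RNA-seq libraries. MYC WT is the unedited line. MYC MUT carries point mutations in the G-runs of the G4 motif upstream of MYC promoter P1, which the authors designed to keep the G4 from folding. SWP carries a different G4 motif in its place. Both edited lines were made by CRISPR and grown from single sorted cells, and how many clones went into the libraries is not given in the sources used here, so that the edit and the founding clone cannot be told apart. In bulk RNA, fewer cells that express a gene and less RNA per cell cannot be told apart. Of the 213 samples of the study, the other assays were not analysed here.

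A G-quadruplex, or G4, is a fold of G-rich DNA in which stacked planes of guanines are held together by Hoogsteen bonds. MYC is a transcription factor that binds the E-box CACGTG with its partner MAX and drives growth and metabolic genes in many dividing cells. The 8 genes come from unrelated families. JAKMIP2, OLFM1 and SLITRK3 are best known from neurons, WWC3 belongs to the Hippo pathway, AGMAT and EXO5 encode enzymes, CYBA encodes a membrane subunit of the NADPH oxidases, and RASL10B encodes a small GTPase.

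The libraries held 65024354 to 98497026 reads on genes. MYC itself had 20020, 28396 and 21580 normalized counts in MYC WT, 10693, 11176 and 12400 in MYC MUT, and 14480, 24743 and 25245 in SWP. The MYC MUT mean was 49.0% of the MYC WT mean, and SWP overlapped MYC WT but not MYC MUT, with its replicate 1 as the lowest library. Replicate 1 of MYC WT and replicate 1 of SWP stood apart from the others of their line, with a chi-square per degree of freedom of 38.4 to 55.6 and of 41.5 to 49.3 against them, where MYC MUT libraries differed by 8.32 to 14.01. Leaving out either of these libraries kept 5 of the 8 genes called in SWP against MYC WT and 8 against MYC MUT. All 5 markers of HEK293T were detected, with a summed 80752 to 92389 normalized counts in MYC WT, 77291 to 88228 in MYC MUT and 71335 to 79391 in SWP. VIM, at 51604 to 63784 in each library, made up most of these sums. In MYC MUT against MYC WT, PAX2 was called higher (0.69) and NEFM lower (-0.58). In SWP none was called against MYC WT, and PAX2 (-0.82) and KRT18 (-0.72) were called lower against MYC MUT. The 4 fibroblast markers summed to 1068 to 1246, 1887 to 1986 and 779 to 1173. COL1A1, with means of 1111 in MYC WT, 1907 in MYC MUT and 913 in SWP, made up most of these sums. LUM had means of 29.1, 35.6 and 61.3 and was called higher in SWP against MYC WT (1.02). COL1A2 and DCN had at most 8.07 normalized counts in any library. The 3 hepatocyte markers summed to at most 21.2 in any library, and the part of both sets in the results was not tested. The column names of the MYC WT libraries carry the tag of a sequencing pool that the other columns lack, so that this pool and the unedited line cannot be told apart.

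JAKMIP2, WWC3, OLFM1 and SLITRK3 were low in MYC WT and high in MYC MUT. JAKMIP2 is a coiled-coil protein named for binding Janus kinases and microtubules, and lies at chr5:147585438-147782775 on the minus strand. Its normalized counts were 20.5, 22.4 and 20.2 in MYC WT, 1248, 1382 and 1301.5 in MYC MUT, and 1.146, 3.71 and 6.92 in SWP. The MYC MUT libraries were far above all the others, and the SWP libraries lay below every MYC WT library. The mean in MYC MUT was 62.2 times that in MYC WT, the largest log2 difference in that comparison among the 16868 genes with a mean of at least 50.

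SLITRK3, a postsynaptic adhesion protein of inhibitory synapses, is encoded at chr3:165186720-165197109 on the minus strand. It had 23.6, 28.1 and 15.4 normalized counts in MYC WT, 711, 856 and 769.6 in MYC MUT, and 5.73, 4.46 and 1.146 in SWP. The order of the lines was that of JAKMIP2, with no overlap between any pair of lines. The mean in MYC MUT was 34.9 times that in MYC WT.

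WWC3, a relative of the Hippo regulator KIBRA, is encoded at chrX:10015254-10144474 on the plus strand and was the least abundant of the 8 per kilobase in MYC WT. Its normalized counts were 3.08, 11.2 and 6.74 in MYC WT, 345, 295 and 298 in MYC MUT, and 1.146, 1.49 and 0 in SWP. The MYC MUT mean was 44.6 times the MYC WT mean. The SWP values rest on 1, 2 and 0 reads, and those of MYC WT on 3, 10 and 7.

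OLFM1 encodes noelin, a secreted glycoprotein of the nervous system, and lies at chr9:135075422-135121180 on the plus strand. It had 32.8, 35.9 and 52.0 normalized counts in MYC WT, 1452, 1478 and 1539 in MYC MUT, and 25.2, 28.2 and 42.7 in SWP. MYC MUT was apart, with a mean 37.0 times that of MYC WT, while the SWP and MYC WT libraries overlapped. Among the genes of this group it was thus the only one whose SWP range reached into the MYC WT range.

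AGMAT, EXO5 and CYBA were lower in MYC MUT than in MYC WT. AGMAT, annotated as a mitochondrial agmatinase, lies at chr1:15571699-15585051 on the minus strand. Its normalized counts were 264, 209 and 193.5 in MYC WT, 4.62, 6.80 and 5.84 in MYC MUT, and 363, 252 and 246 in SWP. The MYC MUT mean was 2.59% of the MYC WT mean, and the SWP libraries overlapped those of MYC WT.

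EXO5 encodes an exonuclease of single-stranded DNA that takes part in the repair of crosslinks, at chr1:40508741-40516038 on the plus strand. It had 265, 219 and 239.7 normalized counts in MYC WT, 6.47, 5.83 and 10.7 in MYC MUT, and 312, 207 and 194 in SWP. The MYC MUT mean was 3.18% of the MYC WT mean. The SWP mean was 98.3% of it, and the MYC WT libraries lay inside the SWP range.

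CYBA, whose product stabilizes the catalytic NOX subunits, is encoded at chr16:88643275-88651083 on the minus strand and was the most abundant of the 8 per kilobase in MYC WT and SWP, not in MYC MUT. Its normalized counts were 5838, 4939 and 5974 in MYC WT, 675, 664 and 560.1 in MYC MUT, and 2102, 2064 and 2135 in SWP. The lines formed 3 separate levels with SWP in the middle. The mean was 5584 ± 563 in MYC WT, 633 ± 63.3 in MYC MUT and 2100.2 ± 35.4 in SWP (SD, n = 3 each), so that MYC MUT stood at 11.3% and SWP at 37.6% of MYC WT.

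RASL10B encodes a RAS-like small GTPase and lies at chr17:35731639-35743521 on the plus strand. It had 68.7, 55.0 and 42.4 normalized counts in MYC WT, 37.9, 41.8 and 41.9 in MYC MUT, and 647, 683 and 637 in SWP. The highest MYC MUT library lay just under the lowest MYC WT library, and all 3 SWP libraries were far above both. The MYC MUT mean was 73.2% of the MYC WT mean, a log2 difference of -0.41 (SE 0.17), which ranked 4958 by size among the 16868 genes, where the other 7 genes ranked between 1 and 70.

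**Figure D1:**
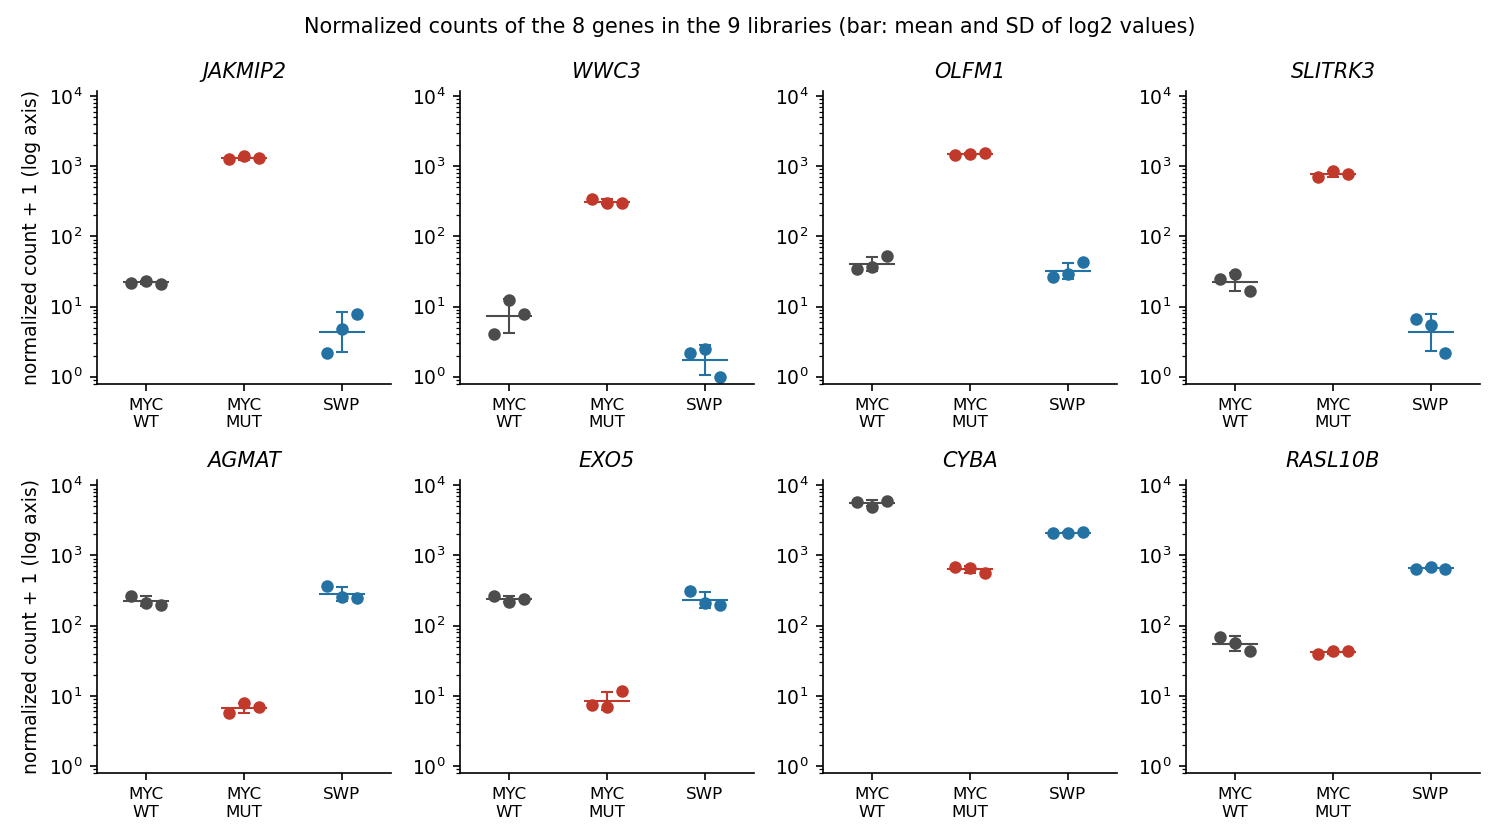
Normalized count plus 1 on a log axis for each of the 8 genes in the 3 libraries of MYC WT (grey), MYC MUT (red) and SWP (blue), with the mean and SD of the log2 values as a bar and whiskers. JAKMIP2, WWC3, OLFM1 and SLITRK3 are highest in MYC MUT, AGMAT, EXO5 and CYBA are lowest there, and RASL10B is high in SWP, at 637 to 683.

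Per kilobase of annotated exon, the mean normalized counts of the 8 genes in MYC WT ran from 0.946 for WWC3 to 1342 for CYBA. In MYC MUT the order was different, with OLFM1 at 243 per kilobase, CYBA at 152, SLITRK3 at 148 and JAKMIP2 at 142 on top, and AGMAT at 1.86 at the bottom. In SWP, CYBA at 505 and RASL10B at 187 led, and WWC3 at 0.118 was last.

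In MYC MUT against MYC WT, 4 of the 8 genes were past the thresholds upward and 3 downward (a fold change beyond 0.5 on the log2 scale with an adjusted p under 0.05), where 11.3% of the 20884 genes tested were called higher and 10.1% lower. All 8 had no overlap between these lines, as had 52.3% of the genes tested. The choice of the genes fixes these counts, and nothing is read from them. With the values rescaled to equal totals, 64.3% of the calls in this comparison were higher, against 52.8% with the deposited scaling.

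SWP was then set against MYC WT. RASL10B was higher, JAKMIP2, WWC3, SLITRK3 and CYBA were lower, and OLFM1, AGMAT and EXO5 did not pass the test. So 1 of the 8 genes was called higher and 4 lower, where 2.15% of all genes tested were called higher and 2.98% lower. With the values rescaled to equal totals, the genes called were 556 higher and 525 lower, against 450 higher and 622 lower with the deposited scaling. In 5 of the 8 genes the lines did not overlap, against 24.6% of the genes tested. The MYC WT libraries in this comparison are those used to choose the genes. For RASL10B, the 1 gene called higher, the SWP libraries may also have played a part in the choice.

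RASL10B had the largest of these differences, with a log2 fold change of 3.57 (SE 0.17). No p is given for RASL10B, since its SWP values may have played a part in its choice. Its SWP mean was 11.8 times the MYC WT mean, at 656 ± 24.2 against 55.3 ± 13.2 (SD, n = 3 each), and 30th by size among the 16868 genes. Leaving out any of the 9 libraries kept the log2 fold change between 3.39 and 3.74.

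CYBA fell by 1.41 on the log2 scale (SE 0.095, adjusted p = 5.6e-06 by limma), to between 1.35 and 1.49 when a library was left out. JAKMIP2 fell by 2.35 (SE 0.37, adjusted p = 0.0021 by limma) and SLITRK3 fell by 2.40 (SE 0.38, adjusted p = 0.0022 by limma). These falls rest on few reads. For JAKMIP2, 12 reads over the 3 SWP libraries stood against 61 in MYC WT, a depth-scaled ratio of 5.40 with an exact 95% counting interval of 2.88 to 11.02. For SLITRK3, 12 reads stood against 64, a ratio of 5.67 with an interval of 3.03 to 11.5. With a pseudocount of 10 the log2 fold changes were smaller, at -1.18 for JAKMIP2 and -1.23 for SLITRK3, and both were still called.

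WWC3 was called lower, with 3 reads in SWP against 20 in MYC WT, an adjusted p of 0.012 by limma, and a depth-scaled ratio of 7.08 with an exact 95% counting interval of 2.1 to 37.2. The call was lost with a pseudocount of 10, at an adjusted p of 0.060, and when the model was fitted to only these 2 lines, at 0.077 by limma. The intervals cover counting error only.

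OLFM1 differed by -0.33 (95% interval -0.80 to 0.15, adjusted p = 0.40 by limma), AGMAT by 0.36 (interval -0.10 to 0.82, adjusted p = 0.35 by limma) and EXO5 by -0.053 (interval -0.58 to 0.48, adjusted p = 0.93 by limma). For these genes the intervals reach to a size of 0.82 on the log2 scale at most, and they do not reach the size of the MYC MUT changes, which were 5.20 for OLFM1, -5.05 for AGMAT and -4.84 for EXO5.

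Against MYC MUT, SWP differed in all 8 genes. It was higher in AGMAT, EXO5, CYBA and RASL10B and lower in JAKMIP2, WWC3, OLFM1 and SLITRK3, so that 4 genes were called in each direction, where 8.31% of all genes tested were called higher and 12.3% lower. All 8 had no overlap between these lines, against 52.3% of the genes tested. Since the MYC MUT level of 7 of the genes was extreme by choice, this count says little beyond the place of SWP.

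The sizes are given as a description without a p, since the MYC MUT values were used to choose the genes. JAKMIP2 fell by 8.25 on the log2 scale from MYC MUT to SWP (SE 0.37), SLITRK3 fell by 7.50 (SE 0.38) and OLFM1 fell by 5.53 (SE 0.22). With a pseudocount of 10, JAKMIP2 differed by -6.59 and SLITRK3 by -5.85. WWC3, with its 3 reads against 982, had a depth-scaled ratio of 322 with a counting interval of 110 to 1564. AGMAT was higher by 5.40 (SE 0.21), EXO5 by 4.79 (SE 0.24), RASL10B by 3.98 (SE 0.17) and CYBA by 1.73 (SE 0.095). For a single gene, the exact two-sided permutation test over 3 against 3 libraries cannot give a p under 0.1, the value it gave wherever the lines did not overlap.

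**Figure D2:**
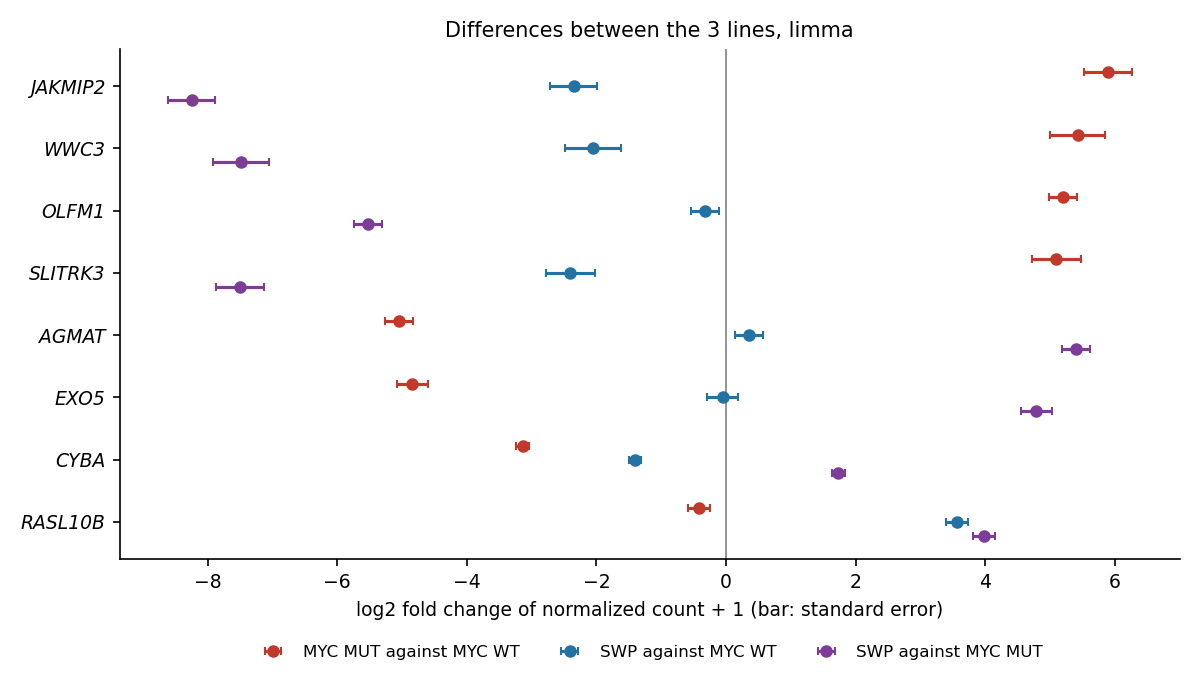
Log2 fold change of normalized count plus 1 with its standard error from limma, for MYC MUT against MYC WT (red), SWP against MYC WT (blue) and SWP against MYC MUT (purple). For OLFM1, AGMAT and EXO5 the blue points lie near 0, for CYBA the blue point at -1.41 lies between 0 and the red point at -3.14, and for JAKMIP2, WWC3 and SLITRK3 the blue and red points are on opposite sides of 0.

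The place of SWP on the path from MYC WT (0) to MYC MUT (1) was computed from the mean log2 values of each line, as a description. EXO5 stood at 0.011, OLFM1 at -0.063 and AGMAT at -0.071, at or just outside the MYC WT end. JAKMIP2 at -0.40, WWC3 at -0.38 and SLITRK3 at -0.47 lay outside it, on the side away from MYC MUT. These places depend on the pseudocount, and with 10 in place of 1 they were -0.22, -0.15 and -0.27, on the same side. CYBA stood at 0.45, and between 0.44 and 0.46 when any library was left out, so that its SWP level was intermediate on the log2 scale. RASL10B was not placed, because its MYC WT and MYC MUT levels are close together. On the log2 scale the SWP mean was nearer to MYC WT than to MYC MUT in all 8 genes, by little for CYBA and RASL10B. On the scale of normalized counts, SWP was nearer to MYC MUT for CYBA.

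The promoter windows of the genes were taken from RefSeq (GRCh38.p14, 250 bases before to 50 after a transcript start), which gave a window for 7 of the 8 genes, not for RASL10B. For OLFM1 and SLITRK3, with 3 and 2 windows, the window nearest to the annotated start was used. Those of the pairs JAKMIP2 and SLITRK3 (highest in MYC MUT, lowest in SWP) and AGMAT and EXO5 (low in MYC MUT, near MYC WT in SWP) and that of CYBA are printed. The pairs were picked after the values were seen, as genes that moved alike while their windows differ in G-runs. WWC3 had the same order of lines as JAKMIP2 and SLITRK3, and its window, not printed, holds G-runs as that of JAKMIP2 does. Each is shown 5′ to 3′ on the strand of its gene, and capitals mark the matches to 4 runs of at least 3 G with 1 to 7 bases between runs, the sequence pattern of a potential G4. The matches were taken from the 5′ end without overlap, so that other matches that overlap a marked one, as in EXO5 and CYBA, are not marked in full.
JAKMIP2, chr5:147782679-147782978, minus strand: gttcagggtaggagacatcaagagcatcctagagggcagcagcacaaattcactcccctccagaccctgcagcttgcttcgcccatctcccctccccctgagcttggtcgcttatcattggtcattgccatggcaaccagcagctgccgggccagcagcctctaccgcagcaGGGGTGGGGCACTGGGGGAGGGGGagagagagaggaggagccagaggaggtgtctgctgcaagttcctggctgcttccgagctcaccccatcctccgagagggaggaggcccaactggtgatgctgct
SLITRK3, chr3:165197060-165197359, minus strand: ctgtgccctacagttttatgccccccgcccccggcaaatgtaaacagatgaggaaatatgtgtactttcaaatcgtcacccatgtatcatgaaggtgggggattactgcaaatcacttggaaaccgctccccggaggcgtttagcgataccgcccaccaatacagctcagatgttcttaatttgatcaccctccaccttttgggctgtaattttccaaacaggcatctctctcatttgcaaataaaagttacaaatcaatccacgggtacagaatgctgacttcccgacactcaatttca
AGMAT, chr1:15585002-15585301, minus strand: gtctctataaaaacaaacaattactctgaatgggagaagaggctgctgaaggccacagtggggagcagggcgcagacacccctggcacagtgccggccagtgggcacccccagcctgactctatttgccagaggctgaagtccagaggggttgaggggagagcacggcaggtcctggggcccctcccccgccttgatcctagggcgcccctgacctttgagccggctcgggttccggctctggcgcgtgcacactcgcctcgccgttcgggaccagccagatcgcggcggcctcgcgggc
EXO5, chr1:40508517-40508816, plus strand: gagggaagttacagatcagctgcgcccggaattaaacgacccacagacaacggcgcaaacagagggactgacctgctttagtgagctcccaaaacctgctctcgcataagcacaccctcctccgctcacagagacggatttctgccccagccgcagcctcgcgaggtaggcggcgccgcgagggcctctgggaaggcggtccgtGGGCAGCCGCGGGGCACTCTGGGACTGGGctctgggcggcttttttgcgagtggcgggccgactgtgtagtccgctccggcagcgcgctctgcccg
CYBA, chr16:88651004-88651303, minus strand: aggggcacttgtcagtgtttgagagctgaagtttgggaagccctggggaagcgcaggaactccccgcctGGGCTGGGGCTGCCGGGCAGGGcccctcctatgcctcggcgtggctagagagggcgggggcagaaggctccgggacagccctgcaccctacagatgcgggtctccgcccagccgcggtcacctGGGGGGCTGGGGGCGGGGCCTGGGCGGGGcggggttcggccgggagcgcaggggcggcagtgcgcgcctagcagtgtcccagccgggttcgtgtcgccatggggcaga

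The G-run pattern, searched on both strands, was in 5 of the 7 windows (JAKMIP2, WWC3, OLFM1, EXO5 and CYBA) and in 25.0% of all 35116 windows. CYBA held 2 matches that do not overlap, and in OLFM1 the G-runs are on the strand opposite to the gene. It was present in genes high in MYC MUT and in genes low there, and it was missing from the window of SLITRK3, high there, and of AGMAT, low there. GGGCGG, the GC box, was in 5 of 7 windows against 45.0% of all windows, and it can overlap the G-run pattern, as it does in CYBA. CCAAT was in 3 of 7 (34.6% of all windows) and TATAAA in 1, that of AGMAT (11.5%). The E-box CACGTG was in 0 of 7 windows, against 7.26% of all, and the RE1 parts TTCAGCACC and GGACAG, 1 to 4 bases apart, were in 0 of 7, against 0.0142%. The windows ranged from 46.0% GC in SLITRK3 to 78.7% in WWC3, around a median of 58.7% over all windows. A match is a description of letters, and no match says only that they are not in this window.

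The genes around the 8 were examined next. The neighbours of JAKMIP2, WWC3 and SLITRK3 included genes that rose in MYC MUT by large amounts. The median log2 fold change there was 0.18 near OLFM1, -0.27 near AGMAT, -0.38 near EXO5, -0.18 near CYBA and -0.21 near RASL10B. The median over all genes tested was -0.0034. Of the tested genes that start within 1 Mb, 2 of 3 near JAKMIP2, 2 of 6 near WWC3, 1 of 13 near OLFM1 and 1 of 1 near SLITRK3 were called higher in the MYC MUT comparison. Near AGMAT, 7 of 34 (20.6%) were called lower and 0 higher, and near EXO5 12 of 39 (30.8%) were lower and 0 higher. Near CYBA 4 of 33 were higher (12.1%) and 3 lower (9.09%), and near RASL10B 2 of 29 (6.90%) were lower and 0 higher. Over all genes tested the shares were 11.3% higher and 10.1% lower, so that the counts near CYBA were close to the background and those of lower genes near AGMAT and EXO5 were above it, and the number near JAKMIP2, WWC3 and SLITRK3 is too small for a share.

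The neighbours named here were singled out after their values were seen. DPYSL3, a cytoskeletal protein of growing neurons, starts 273 kb downstream of the JAKMIP2 start. It had 223, 183 and 185 normalized counts in MYC WT, 4900.2, 4606 and 4668 in MYC MUT, and 206, 155 and 160.3 in SWP. Its rise in MYC MUT had a log2 fold change of 4.58 (SE 0.13, adjusted p = 6.5e-09 by limma), and SWP differed from MYC WT by -0.19 (adjusted p = 0.41 by limma), unlike JAKMIP2 itself.

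CLCN4, a chloride/proton exchanger, starts 142 kb downstream of the WWC3 start, and SHROOM2, an actin-binding protein, 229 kb upstream of it. CLCN4 had 13.3, 23.6 and 20.2 normalized counts in MYC WT, 471, 462 and 508 in MYC MUT, and 22.9, 17.1 and 19.6 in SWP. SHROOM2 had 61.5, 94.3 and 55.8, then 1217, 1197 and 1298, then 13.7, 43.1 and 50.7. In both genes the MYC MUT libraries were far above all the others, with log2 fold changes of 4.62 (SE 0.22) and 4.15 (SE 0.39), while EIF5P1, a pseudogene 196 kb upstream of the WWC3 start, differed by 0.38 and was not called.

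BCHE, butyrylcholinesterase, was the sole tested neighbour of SLITRK3, starting 640 kb upstream of it. It had 10.3, 24.7 and 24.1 normalized counts in MYC WT, 182, 198 and 169.5 in MYC MUT, and 1.146, 0.743 and 0 in SWP. As in SLITRK3, MYC MUT was highest and SWP lowest with no overlap, and BCHE was called higher in MYC MUT (adjusted p = 7.0e-05 by limma) and lower in SWP (adjusted p = 1.2e-04 by limma, on 2 reads).

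In SWP against MYC WT the median log2 fold change of the neighbours was -0.057 near JAKMIP2, -0.10 near WWC3 and 0.12 near OLFM1. Near AGMAT 2 of 34 were lower, near EXO5 2 of 39 were higher and 2 lower, near CYBA 1 of 33 was lower, and near RASL10B 1 of 29 was lower, beside 2.15% higher and 2.98% lower over all genes tested. The log2 fold changes of the neighbours of RASL10B ran from -0.84 to 0.21 beside its 3.57.

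Genes that overlap the 8 on the genome were also read, because the use of strand in the counting is not given in the sources used here. AGMAT overlaps DNAJC16, a protein-coding gene on the opposite strand, with 1999, 1964 and 1615 normalized counts in MYC WT, 1431, 1255 and 1356 in MYC MUT, and 1825, 1475 and 1589 in SWP. DNAJC16 was lower in MYC MUT by a log2 fold change of -0.46 (SE 0.11), short of the fold threshold and far from the change of AGMAT. The other overlapping genes, JAKMIP2-AS1, WWC3-AS1, a Y_RNA gene inside WWC3 and ENSG00000227278 and ENSG00000238186 at EXO5, had at most 2.29 normalized counts in any library.

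The relatives of each gene were taken from lists of its family or pathway, without the gene itself. The other JAKMIP genes both rose in MYC MUT, by less than JAKMIP2. JAKMIP1 had a mean of 468 in MYC WT, 867 in MYC MUT and 498 in SWP, a log2 fold change of 0.90 in MYC MUT (adjusted p = 0.0015 by limma), and JAKMIP3 rose by 1.11 (adjusted p = 0.0031 by limma). Their median was 1.00, where the median over all genes tested was -0.0034. In SWP neither was called, with a median of -0.041.

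Of 22 other genes of the WWC family and the Hippo core, 3 rose and 4 fell in MYC MUT, and 1 rose in SWP. The median log2 fold change was -0.0033 in MYC MUT and -0.049 in SWP, close to the medians over all genes of -0.0034 and -0.055. ANKRD1, a target of the Hippo effectors, rose in both, by 2.25 in MYC MUT (adjusted p = 2.0e-04 by limma) and by 1.31 in SWP (adjusted p = 0.019 by limma). TEAD2, a transcription factor partner of YAP1, fell by 1.21 in MYC MUT, and CCN1, another target gene, rose by 1.02. WWC1, the KIBRA gene, had log2 differences of 0.27 and 0.30 and WWC2 of 0.22 and -0.038, none of them past the fold threshold.

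Of 12 other genes with an olfactomedin domain, 7 were tested, and OLFM2 was the one called against MYC WT, with 227 to 425 normalized counts in MYC WT, 913 to 967 in MYC MUT and 167 to 431 in SWP. It rose by 1.57 in MYC MUT (adjusted p = 0.0024 by limma) and differed by -0.081 in SWP. The list median was -0.048 in both comparisons.

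Of 19 other genes of the SLITRKs and synaptic adhesion proteins with leucine-rich repeats and their receptors, 12 were tested. In MYC MUT 5 rose and 2 fell (median 0.22), and in SWP 1 rose and 3 fell (median -0.34). SLITRK1 had 5.13 to 11.6 normalized counts in MYC WT, 29.6 to 42.9 in MYC MUT and 0 in every SWP library, the order of the lines seen in SLITRK3. LRRTM2, a presynapse-organizing protein, rose by 0.89 in MYC MUT and fell by 0.64 in SWP, and LRRTM4 fell by 1.39 in SWP (adjusted p = 1.1e-04 by limma) with no call in MYC MUT. LRRC4 rose in both lines, by 1.33 in MYC MUT and by 0.75 in SWP.

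Among 17 other genes of agmatine, arginine and polyamine metabolism, 16 were tested, of which 1 rose and 2 fell in MYC MUT. ASS1, argininosuccinate synthase, fell by 1.21 in MYC MUT, SRM, spermidine synthase, fell by 0.64, and SAT1, which acetylates spermidine, rose by 0.67. The median log2 fold change was -0.037 in MYC MUT and -0.051 in SWP. Among 23 other nucleases of single-stranded or flap DNA, 21 were tested, of which 2 rose and 1 fell in MYC MUT. FEN1, the flap endonuclease, rose in MYC MUT by 0.58 and in SWP by 0.51 (adjusted p = 0.015 by limma), where it was the single call. The medians of -0.010 and -0.0038 stood beside -4.84 and -0.053 for EXO5.

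Of 17 other NADPH oxidase subunits and partners, 6 were tested, and NOX1 and NOX4 had at most 1.153 normalized counts in any library. CYBB, the phagocyte partner of CYBA, had 45.2 to 56.1 normalized counts in MYC WT, 48.6 to 50.8 in MYC MUT and 99.6 to 114 in SWP. It rose in SWP by 1.08 (adjusted p = 0.0014 by limma), where CYBA fell, and differed by 0.021 in MYC MUT (adjusted p = 0.93 by limma). CYBB is also 1 of 6 leukocyte markers, whose summed counts were 134 to 147 in MYC WT, 163 to 180 in MYC MUT and 173 to 196 in SWP, with PTPRC at no more than 1.85 and CD3E at no more than 0.974 in any library. DUOX2 rose by 1.75 in MYC MUT. The list's medians were 0.056 and -0.11.

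Of 21 other RAS-like small GTPases, 16 were tested, of which 4 rose and 1 fell in MYC MUT and 2 rose in SWP (medians 0.35 and -0.022). RASL10A, the closest relative of RASL10B by name, had a mean of 75.7 in MYC WT, 359 in MYC MUT and 99.7 in SWP, so that it rose by 2.25 in MYC MUT and differed by 0.28 in SWP (adjusted p = 0.69 by limma), where RASL10B had its high level in SWP. RASD2 rose by 2.02 and DIRAS3 fell by 1.43 in MYC MUT. RERG and DIRAS2 rose in SWP, by 0.87 (adjusted p = 2.0e-04 by limma) and 0.89 (adjusted p = 0.049 by limma).

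Genes whose pattern over the 9 libraries was most like that of each of the 8 were found by the root mean square difference of the centred log2 values, among tested genes with a mean of at least 50. The nearest to JAKMIP2 was KCNK2, a potassium channel gene, at 0.56, with means of 7.20 in MYC WT, 427 in MYC MUT and 0.495 in SWP, followed by SLC16A7, a monocarboxylate transporter gene, at 0.82. SYT14, a synaptotagmin gene, was the nearest to both WWC3 (0.58) and SLITRK3 (0.42), with means of 34.8, 1066 and 9.48. KCNK2 was the second nearest to both of these, at 0.61 for each. CRMP1, a relative of the DPYSL3 gene, and PRKCB, a protein kinase C gene, were nearest to OLFM1, at 0.43 and 0.44.

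RUNX3, a transcription factor gene, was nearest to AGMAT at 0.41, with means of 256 in MYC WT, 3.81 in MYC MUT and 287 in SWP. SLC12A8, a solute carrier gene, was second for AGMAT (0.43) and nearest to EXO5 (0.36), with means of 210.0, 9.28 and 212, and ZNF572 was second for EXO5 (0.53). EHD2, a caveolar ATPase gene, was nearest to CYBA at 0.26, with means of 385, 52.7 and 148, and ICAM4 was second at 0.40. DUSP2, a phosphatase gene, and DDR2, a collagen receptor gene, were the nearest to RASL10B, at 0.72 and 0.89. Unlike RASL10B, DUSP2 and DDR2 were both far lower in MYC MUT than in MYC WT, with log2 differences of -1.83 and -2.06.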

How the data were processed

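RNA was measured in 9 poly(A)-selected, directional libraries, 3 per line, grouped by the sample labels. The authors aligned reads to hg38 (bwa mem), deduplicated them (Picard) and took counts for the genes of a GENCODE annotation. The counting tool and its use of strand are not given in the sources used here. This aligner is not splice-aware, and reads over exon junctions can be lost. The deposited values, treated as a signal, are read counts that the authors scaled by the DESeq2 size factor of each library. Every value was a whole multiple of 1 step per library (100% within rounding), which gave back the reads for the alternatives.

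Tests covered the 20884 of 58336 genes that averaged 10 or more normalized counts, run on log2(normalized count + 1) with limma 3.58.1 in R 4.3.3 (lmFit, then eBayes with a trend, on all 9 libraries together), with Benjamini-Hochberg adjustment over all of them. Called genes had a fold change beyond 0.5 on the log2 scale with an adjusted p under 0.05. This scale understates the change of low genes. The labels number the libraries as biological replicates, and nothing says more of their source, so that p-values measure the spread between these libraries. GENCODE matched 57754 identifiers and gave symbols and positions on hg38. Promoter windows come from RefSeq.

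The 8 genes, the lists and the tests were chosen with earlier results of these data known. Named are the 8 genes, MYC, the 2 genes most like each, overlapping genes, and up to 3 called genes per list and comparison with the largest change. Others are said to be chosen later. Same-numbered libraries deviated together between SWP and MYC WT (correlations 0.56, 0.40 and 0.10) and between SWP and MYC MUT (0.33, 0.24 and 0.23). Between MYC WT and MYC MUT the correlations were 0.33, 0.15 and 0.049. Libraries of unlike number could also deviate together, as MYC WT replicate 2 and SWP replicate 3 did (0.26). The fits behind the printed p-values used the line only, without pairing. Any such pairing comes from the data. Alternatives were pseudocounts of 0.1 and 10, no minimum or a minimum mean of 50, scaling to equal upper quartiles or totals, no trend in eBayes, fits of 2 lines, a block for the replicate number, tests of the reads by edgeR 4.0.16 and DESeq2 1.42.0, other fold thresholds, other windows and leaving out each library. The fits were tested on simulated data. The origin of the motif in SWP and 1 gene of a list are not reported here. Plots used Python 3.11.15 and matplotlib 3.10.9.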

Additional observations from a re-analysis of the deposited data

Results flagged for a closer look

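In JAKMIP2, WWC3, SLITRK3 and RASL10B, every library of each edited line lay beyond the MYC WT libraries, on opposite sides of them. That the directions from MYC WT differ was not tested: the values below are the SWP against MYC MUT log2 fold changes, given as a description, since the MYC MUT values chose the genes. JAKMIP2 differed by -8.25 on the log2 scale, SLITRK3 by -7.50 and WWC3 by -7.48, on 12, 12 and 3 reads in SWP, and all of these values depend on the pseudocount. RASL10B differed by 3.98, with 637 to 683 normalized counts in SWP, and its opposite direction in MYC MUT rests on 41.9 in the highest MYC MUT library against 42.4 in the lowest MYC WT library. No group had enough libraries for an outlier test.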

How the results depend on the processing

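With an adjusted p under 0.05 alone, 8021 genes passed in MYC MUT against MYC WT, 2083 in SWP against MYC WT and 7944 in SWP against MYC MUT. With a log2 fold change beyond 1 they were 1648, 505 and 1723, and with the thresholds of the report 4476, 1072 and 4309. Leaving out each library gave 3923 to 4950, 837 to 1252 and 3785 to 4807. With the replicate number as a block the counts were 4970, 1464 and 4773, the 8 genes kept 5 and 8 calls, and the block changed no other call on them. Of 320 log2 fold changes of the 8 genes in SWP under the alternatives, 313 kept their direction and side of the threshold and 2 lost the call, both for WWC3, at -0.62 with a pseudocount of 10 and at -2.06 in the fit of 2 lines. The other 5 reversed, all for EXO5 against MYC WT, which was not called: 0.018 with edgeR and DESeq2, 0.018 without MYC WT replicate 1, and 0.030 and 0.076 without SWP replicates 2 and 3, in a leave-one-out range of -0.27 to 0.076. The cause was not tested. No gene within 250 kb of OLFM1 or SLITRK3 was tested, so that no value could be given there. Of 12 neighbour medians taken within 250 kb in place of 1 Mb, 4 moved by more than the spread between libraries. Near WWC3 the median in MYC MUT against MYC WT was 4.15 on 3 genes within 250 kb and 0.11 on 6 within 1 Mb. Near JAKMIP2 the median in SWP against MYC WT was 0.76 on 1 gene within 250 kb and -0.057 on 3 within 1 Mb. Of 160 places of SWP between MYC WT and MYC MUT, 148 moved by less than the spread between libraries and 12 by more, among them WWC3, at -0.61 with a pseudocount of 0.1. These counts include RASL10B, whose place was set aside above because its MYC WT and MYC MUT levels are close together. Depth limits WWC3, JAKMIP2 and SLITRK3 in SWP, which rest on 3, 12 and 12 reads.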
